A study of Mus musculus with 8 samples.

Results

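Bcl6 and Prdm1 encode a pair of transcriptional repressors, and both were followed here across 8 microarrays of mouse helper T cells. They were taken by name: each gene had 1 probeset that the platform annotation pairs with its symbol alone (10438738 for Bcl6 and 10368970 for Prdm1), so the members are 2 of the 19938 genes measured in this way. Both were chosen by their levels in the 4 groups, which were already known, so those levels are given as a description and no p-value is attached to them. The groups held 2 arrays each, labelled as biological replicates, and were Tet2-/- Th17, wild-type Th17, Tet2-/- Th1 and wild-type Th1 cells. All came from mice on the C57BL/6 background, whose naive CD4+ T cells were sorted from spleen and lymph node (CD25-, CD62L high, CD44 low) and activated with antibodies to CD3 and CD28. Th17 cultures received 0.5 ng/ml TGF-β1 and 10 ng/ml IL-6 with antibodies to interferon-γ and IL-4, and Th1 cultures 10 ng/ml IL-12 and 30 U/ml IL-2 with an antibody to IL-4. The sources used here do not say whether the Th17 cultures also received IL-23 with IL-1β, what age the mice were, what part of Tet2 was deleted, or whether each array stands for 1 mouse or a pool. Tet2 belongs to the dioxygenases that oxidise 5-methylcytosine, a step towards DNA demethylation.

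Bcl6 is a repressor with a BTB domain and zinc fingers. It is the lineage factor of follicular helper T cells and of germinal centre B cells, and it recruits corepressors such as NCoR and BCOR. Prdm1 encodes Blimp-1, a PR-domain zinc finger repressor that drives the plasma cell program and restrains the follicular helper program in T cells. Each is known to repress the gene of the other, and in activated CD4+ T cells signals through STAT3 and IL-6 or IL-21 favour Bcl6 while IL-2 signals through STAT5 favour Blimp-1.

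The DNA just upstream of the known starts of both genes is shown because STAT proteins and Bcl6 itself bind related palindromes and because Tet2 acts on methylated CpG sites. The sequences are the 250 bases before each RefSeq start in build GRCm38.p6, read 5′ to 3′ on the minus strand, with matches to the searched motifs in capitals. Bcl6 has 2 such windows, at chr16:23988853-23989102 and at chr16:23981284-23981533, and Prdm1 has 1, at chr10:44458749-44458998.
Bcl6, first start: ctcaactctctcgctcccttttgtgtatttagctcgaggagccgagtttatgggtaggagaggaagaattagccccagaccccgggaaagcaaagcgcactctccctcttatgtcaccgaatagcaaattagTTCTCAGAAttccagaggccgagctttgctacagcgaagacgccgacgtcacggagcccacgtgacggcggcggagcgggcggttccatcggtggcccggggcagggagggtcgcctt
Bcl6, second start: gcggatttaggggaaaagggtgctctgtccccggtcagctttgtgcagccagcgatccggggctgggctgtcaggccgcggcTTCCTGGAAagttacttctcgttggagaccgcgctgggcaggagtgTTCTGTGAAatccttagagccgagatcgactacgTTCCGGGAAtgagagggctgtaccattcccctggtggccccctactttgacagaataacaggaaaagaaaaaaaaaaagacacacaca
Prdm1: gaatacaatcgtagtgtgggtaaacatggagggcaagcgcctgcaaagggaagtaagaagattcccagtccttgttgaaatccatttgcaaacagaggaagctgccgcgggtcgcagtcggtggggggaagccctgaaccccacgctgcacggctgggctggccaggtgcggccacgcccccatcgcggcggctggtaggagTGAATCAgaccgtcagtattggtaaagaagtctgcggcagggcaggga
Both strands were searched for a STAT-type site (TTCNNNGAA), a Bcl6-type site (TTCNNAGAA), a Blimp-1-type site (AGNGAAAG) and an AP-1-type site (TGANTCA). Every match to the Bcl6-type letters is by construction also a match to the STAT-type letters. The first Bcl6 window holds 1 STAT-type match, TTCTCAGAA, which lies 118 to 110 bases before the start and fits the Bcl6-type letters on both strands. The second Bcl6 window holds 3 STAT-type matches, TTCCTGGAA, TTCTGTGAA and TTCCGGGAA, of which TTCTGTGAA also fits the Bcl6-type letters on the other strand. The Prdm1 window holds 1 AP-1-type match, TGAATCA, 48 to 42 bases before the start. Of the 32851 windows of this length in the table, 7.02% hold a STAT-type match, 4.43% a Bcl6-type match, 7.30% a Blimp-1-type match and 6.75% an AP-1-type match. The Bcl6 windows hold 21 and 13 CpG sites and the Prdm1 window 15, against a median of 6 over all windows. Fewer CpG sites were held by 83.7%, 68.5% and 72.7% of all windows, so many other windows hold as many or more. A match is a description of the letters, and no methylation was measured on these arrays.

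The values are log2 units of the authors' RMA output, in which a difference of 1 is a doubling. Detection calls were not used here, and the 1194 olfactory and vomeronasal receptor genes, which T cells are not known to use, served as a guide to the level of genes not expressed. Their 95th percentile lay at 6.47 to 6.63 log2 units on the Th17 arrays and at 6.81 to 6.96 on the Th1 arrays, while the median of all genes lay at 6.57 to 6.62 on all 8. Dim levels therefore read higher on the Th1 arrays than on the Th17 arrays by this measure. Tet2 itself, with 1 probeset, read 8.37 and 8.42 in Tet2-/- Th17 cells, 8.53 and 8.51 in wild-type Th17 cells, 8.12 and 7.97 in Tet2-/- Th1 cells and 8.14 and 8.03 in wild-type Th1 cells. Since it is unknown whether the probes fall inside the deletion, these values say nothing on the genotype labels.

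All 9 measured pan-T-cell markers stood above the receptor mark on every array, and 0 of 9 B cell markers did so in 3 of the groups, with 2 of 9 in wild-type Th17 cells. Th17 markers averaged 9.08 to 9.51 on the Th17 arrays and 6.75 to 6.84 on the Th1 arrays, and Th1 markers 7.83 to 7.99 and 8.70 to 9.14. Of the plasma cell markers, 4 or 5 of 8 stood above the mark in each group, with a mean of 7.17 to 7.29 on the 8 arrays. Of the 10 myeloid and the 5 measured NK cell markers, 0 did so in any group. Of 9 stromal markers, 6 stood above the mark in Th17 cells of each genotype, 5 in Tet2-/- Th1 and 4 in wild-type Th1 cells. The Th17 arrays also differed among themselves in sex-linked transcripts. Xist read 8.62 and 11.3 in Tet2-/- and 5.196 and 10.1 in wild-type Th17 cells (replicates 1 and 2), against 4.83 to 5.11 on the Th1 arrays, and the mean of 3 Y-linked genes read 8.71 and 4.85 in Tet2-/- and 8.80 and 7.83 in wild-type Th17 cells. The members' differences in Th17 cells and the list counts between cell types are therefore also given without Th17 Tet2-/- replicate 2 (lowest Y-linked level) and Th17 wild-type replicate 1 (highest). On the Th17 arrays kept, Xist still read 8.62 and 10.1, far above the Th1 arrays. Between cell types this setting therefore does not even out Xist, and the part of sex-linked transcripts in those list counts was not tested. Several marker means also moved with genotype. Th17 markers averaged 9.08 to 9.38 in Tet2-/- and 9.45 to 9.51 in wild-type Th17 cells. Of these, 0 of 8 were called and 4 had an unadjusted p under 0.05, as did 4.25% of all genes. Regulatory T cell markers averaged 8.57 to 8.64 in Tet2-/- and 8.84 to 8.86 in wild-type Th17 cells. Th1 markers averaged 8.70 to 8.83 in Tet2-/- and 8.96 to 9.14 in wild-type Th1 cells, with 1 of 10 called, beside 0.00502% of all genes. The mean of 9 stromal markers was 6.98 to 7.04 in Tet2-/- and 6.72 to 6.81 in wild-type Th17 cells and 6.62 to 6.63 in Tet2-/- and 6.47 to 6.51 in wild-type Th1 cells, and the part of these markers in the genotype differences was not tested.

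Bcl6 stood above the receptor mark only in Th17 cells, and it read higher there in the Tet2-/- arrays. In that comparison of genotypes 0% of all genes were called. Its probeset read 8.50 and 8.31 log2 units in Tet2-/- Th17 cells, 7.49 and 7.82 in wild-type Th17 cells, 6.39 and 6.66 in Tet2-/- Th1 cells and 6.45 and 6.51 in wild-type Th1 cells. The 4 Th17 arrays lay above the 4 Th1 arrays, and within Th17 cells both Tet2-/- arrays lay above both wild-type arrays, as did those of 19.9% of all genes. The group means were 8.40 ± 0.130 in Tet2-/- Th17, 7.66 ± 0.234 in wild-type Th17, 6.53 ± 0.185 in Tet2-/- Th1 and 6.48 ± 0.0439 in wild-type Th1 cells (SD, n = 2 each). The Th1 groups overlapped and all 4 Th1 arrays read 0.23 to 0.57 log2 units under the receptor mark of their own array, so Bcl6 was not distinguished from genes not expressed in Th1 cells of either genotype. All 4 Th17 arrays stood above it, by 1.98 and 1.71 in Tet2-/- cells and by 0.86 and 1.35 in wild-type cells.

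Prdm1 had its highest level in wild-type Th1 cells, and the order of its other groups rests on values under the receptor mark. Its probeset read 5.97 and 6.23 log2 units in Tet2-/- Th17 cells, 5.89 and 5.84 in wild-type Th17 cells, 6.73 and 6.74 in Tet2-/- Th1 cells and 7.48 and 7.53 in wild-type Th1 cells. The means were 6.10 ± 0.182 in Tet2-/- Th17, 5.86 ± 0.0334 in wild-type Th17, 6.74 ± 0.00938 in Tet2-/- Th1 and 7.51 ± 0.0348 in wild-type Th1 cells (SD, n = 2 each), so that the order from the highest was wild-type Th1, Tet2-/- Th1, Tet2-/- Th17 and wild-type Th17 cells. No neighbours in this order overlapped, although the lowest pair differed by 0.23 beside an SD of 0.182; between genotypes 14.4% of all genes were lower without overlap in Tet2-/- Th1 cells and 19.9% higher in Tet2-/- Th17 cells. Only the 2 wild-type Th1 arrays stood above the receptor mark, by 0.67 and 0.62, while the Tet2-/- Th1 arrays lay 0.23 and 0.14 below it and the 4 Th17 arrays 0.38 to 0.74 below it. In bulk RNA, fewer cells that express a gene and less RNA per cell cannot be told apart.

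**Figure D1:**
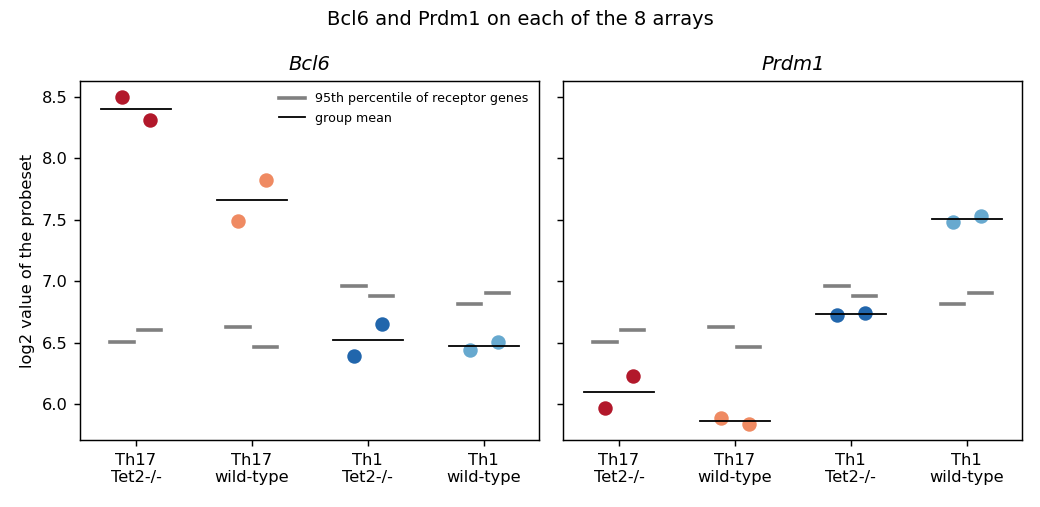
Level of Bcl6 (left) and Prdm1 (right) on each of the 8 arrays, in log2 units of the probeset, with the group mean as a black line and the 95th percentile of receptor genes on the same array as a grey bar. Bcl6 stands above the grey bars on the 4 Th17 arrays, highest in Tet2-/- Th17 cells, and Prdm1 only on the 2 wild-type Th1 arrays.

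The larger genotype difference was that of Bcl6 in Th17 cells and that of Prdm1 in Th1 cells. In Th17 cells Bcl6 was 1.68-fold higher in Tet2-/- than in wild-type cells, a log2 difference of 0.75 (SE 0.141). This is given with no p-value, since Bcl6 was chosen with these levels known. In Th1 cells its difference was 0.05 (SE 0.141), between values that were all under the receptor mark. Prdm1 was lower in Tet2-/- than in wild-type Th1 cells, by a log2 difference of -0.77 (SE 0.115), which sets wild-type values above the receptor mark against Tet2-/- values under it and is given with no fold. In Th17 cells the Prdm1 difference was 0.23 (SE 0.115), again between values under the mark, and it was 0.13 without the 2 Th17 arrays of extreme Y-linked level. The Bcl6 difference in Th17 cells was 0.79 after allowing for the Y-linked level and 0.67 without those arrays, and it ran from 0.58 to 0.91 when each array was left out in turn. The Prdm1 difference in Th1 cells ran from -0.80 to -0.75 when each array was left out in turn.

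Between Th17 and Th1 cells, Bcl6 read higher in Th17 cells by a log2 difference of 1.88 (SE 0.141) without Tet2 and of 1.18 (SE 0.141) in wild-type cells. Prdm1 read lower in wild-type Th17 than in wild-type Th1 cells, by a log2 difference of -1.64 (SE 0.115). In Tet2-/- cells its difference was -0.64 (SE 0.115), but there both sides lay under the receptor mark, which itself stood higher on the Th1 arrays, so no difference in Prdm1 expression is read from it. The arrays of the 2 cell types did not overlap for either member, a pattern that in Tet2-/- cells 28.8% of all genes showed in the higher and 27.6% in the lower direction, and in wild-type cells 25.2% and 26.7%; nothing is read from it here. In the other comparisons the low side lay under the mark, and no fold is given. These comparisons share arrays with the genotype comparisons, so their sizes are not independent of them.

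The relative standing of the members is read only as a difference between arrays, since 2 probesets differ in brightness. With the mean of wild-type Th1 cells as 0, the log2 value of Bcl6 minus that of Prdm1 was 3.55 and 3.11 in Tet2-/- Th17 cells, 2.63 and 3.01 in wild-type Th17 cells, 0.70 and 0.94 in Tet2-/- Th1 cells and -0.01 and 0.01 in wild-type Th1 cells. The Tet2-/- arrays lay on the Bcl6 side of the wild-type arrays in both cell types. How many other pairs of genes show such a pattern was not worked out, so nothing is read from it. The shift with genotype was 0.51 in Th17 cells and 0.82 in Th1 cells, made up of Bcl6 at 0.75 less Prdm1 at 0.23 in Th17 cells and of Bcl6 at 0.05 less Prdm1 at -0.77 in Th1 cells. When each array was left out in turn, it ran from 0.29 to 0.73 in Th17 cells and from 0.70 to 0.94 in Th1 cells. Bcl6 in all Th1 cells, Prdm1 in all Th17 cells and Prdm1 in Tet2-/- Th1 cells lay under the receptor mark, so the shift rests in both cell types partly on values not distinguished from genes not expressed.

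**Figure D2:**
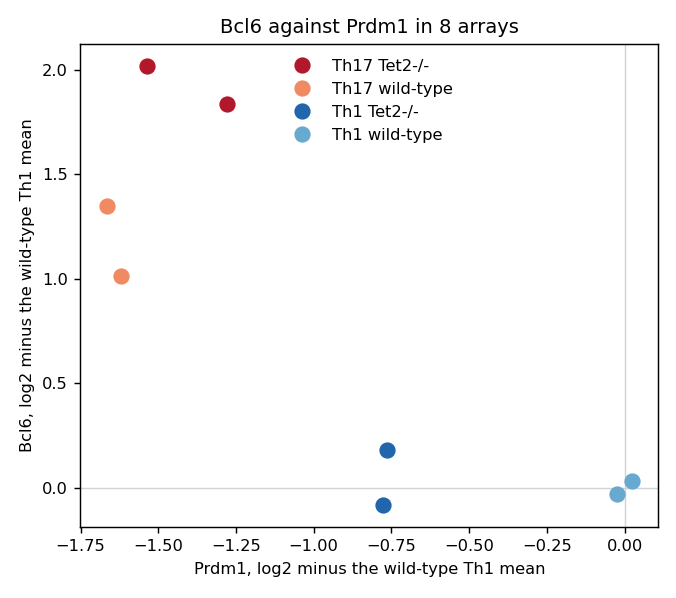
Bcl6 (vertical) against Prdm1 (horizontal) on the 8 arrays, each as the log2 value minus the mean of wild-type Th1 cells. The Tet2-/- Th1 arrays are displaced to the left of the wild-type Th1 arrays at a like level of Bcl6, and the Tet2-/- Th17 arrays lie above the wild-type Th17 arrays.

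The rest of the circuit was read from 12 lists of regulators, partners, targets and relatives, which name 166 genes with Bcl6 and Prdm1 among them. Of these, 149 other genes were measured and 15 were not analysed here. Each gene was tested in a limma fit over all genes, and called at a Benjamini-Hochberg adjusted p under 0.05. Between Tet2-/- Th17 and Tet2-/- Th1 cells 10.4% of all genes were called, 7.14% higher and 3.29% lower in Th17 cells, and of the 149 list genes 47 were called, 28 higher and 19 lower. Between wild-type Th17 and Th1 cells 8.47% of all genes were called, 5.30% higher and 3.17% lower, and 51 of the list genes, 33 higher and 18 lower. The lists hold lineage genes that are known to differ between these cells, such as Tbx21 and Il23r. Nothing particular to Bcl6 or Blimp-1 is therefore read from this share, nor from the counts of single lists below. Without the 2 Th17 arrays of extreme Y-linked level, 35 list genes were called in Tet2-/- and 36 in wild-type cells, beside 4.89% and 4.05% of all genes. Without Th17 Tet2-/- replicate 1 alone, 29 list genes were called in Tet2-/- cells, 16 higher and 13 lower, beside 4.09% of all genes.

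Among the inducers of Bcl6, 5 of 15 measured genes were higher in Th17 than in Th1 cells of each genotype, with 0 lower in Tet2-/- and 1 lower in wild-type cells. The called share was 33.3% in Tet2-/- and 40.0% in wild-type cells, beside 10.4% and 8.47% of all genes. Maf, a transcription factor of follicular helper and Th17 cells, read 10.6 and 9.83 in Tet2-/- Th17 cells and 10.0 and 10.5 in wild-type Th17 cells, against 6.51 and 6.91 in Tet2-/- Th1 cells and 6.58 and 6.67 in wild-type Th1 cells. Its log2 difference was 3.52 (SE 0.236, adjusted p = 2.09e-06) in Tet2-/- and 3.65 (adjusted p = 1.48e-06) in wild-type cells, and the 4 Th17 arrays did not overlap the 4 Th1 arrays. Il21, the cytokine that signals through STAT3, was higher by 1.84 (adjusted p = 3.17e-05) in Tet2-/- and by 1.70 (adjusted p = 6.46e-05) in wild-type cells. Lef1, which acts upstream of Bcl6 in follicular helper cells, was higher by 1.31 and 1.098 (adjusted p = 3.86e-05 and 0.000154), and the costimulatory receptor Icos by 0.66 and 0.90 (adjusted p = 0.00749 and 0.00128). The gene called lower in wild-type Th17 cells was the receptor Il21r (-0.58, adjusted p = 0.0476), a call that held in 7 of 20 alternatives. Stat3, the transcription factor downstream of IL-6 and IL-21, differed by -0.02 (SE 0.146) in Tet2-/- and by -0.11 in wild-type cells, and Batf, an AP-1 factor, by 0.25 (SE 0.129) and 0.01. The median of the list was 0.31 in Tet2-/- and 0.39 in wild-type cells, against -0.01 over all genes in each.

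Of 10 measured genes that restrain Bcl6, 4 were called higher and 0 lower in Th17 cells of each genotype, and the other 6 did not pass the test. Over all genes, 10.4% were called in Tet2-/- and 8.47% in wild-type cells. Id2, an inhibitor of E proteins, was higher by 1.23 (adjusted p = 0.00104) in Tet2-/- and by 1.02 (adjusted p = 0.00461) in wild-type cells. Stat5b, a transcription factor downstream of IL-2, was higher by 0.54 and 0.65 (adjusted p = 0.0136 and 0.00607), Foxo1 by 0.58 and 0.71 (adjusted p = 0.0317 and 0.0138) and Fbxo11, the ubiquitin ligase subunit that targets Bcl6 protein, by 0.62 and 0.61 (adjusted p = 0.0108 and 0.0147). The related Stat5a differed by -0.05 (SE 0.132) in Tet2-/- and by 0.04 in wild-type cells, and Il2ra, the α chain of the IL-2 receptor, by -0.09 (SE 0.123) and 0.02. Without the 2 Th17 arrays of extreme Y-linked level, 2 of these 10 genes were called in each genotype.

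Inducers of Prdm1 moved in both directions between Th17 and Th1 cells. Of 18 measured genes, 2 were higher and 2 lower in Tet2-/- cells, and 3 were higher and 2 lower in wild-type cells. These shares were 22.2% and 27.8%, beside 10.4% and 8.47% of all genes. Il12rb2, the IL-12 receptor chain of Th1 cells, read 10.5 and 10.6 in Tet2-/- Th17 cells and 10.1 and 10.2 in wild-type Th17 cells, against 11.7 and 11.9 in Tet2-/- Th1 cells and 11.9 and 11.8 in wild-type Th1 cells. It was lower in Th17 cells by a log2 difference of -1.27 (adjusted p = 4.51e-05) in Tet2-/- and -1.65 (adjusted p = 5.85e-06) in wild-type cells. Il12rb1, the shared chain of that receptor, was called lower in Tet2-/- cells (-0.55, adjusted p = 0.0305), a call that held in 12 of 20 alternatives and was lost without any 1 of the 4 Tet2-/- arrays. Ikzf3, which encodes the zinc finger factor Aiolos, was higher by 1.42 and 1.68 (adjusted p = 7.45e-05 and 2.17e-05), and Zbtb20 by 0.59 in wild-type cells (adjusted p = 0.0245), with 0.44 and an adjusted p of 0.0748 in Tet2-/- cells. Irf4, which binds both the Bcl6 and the Prdm1 gene, differed by -0.09 (SE 0.126) in Tet2-/- and by 0.09 in wild-type cells and read 11.25 to 11.49 on the 8 arrays.

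Some brakes on Prdm1 were higher in Th17 cells, 2 of 7 measured in Tet2-/- cells and 3 of 7 in wild-type cells, with 0 lower in either. The called share was 28.6% and 42.9% of these few genes, beside 10.4% and 8.47% of all genes. Myb, a transcription factor of progenitor and memory-like T cells, was higher by 0.67 (adjusted p = 0.00941) in Tet2-/- and by 1.25 (adjusted p = 0.000146) in wild-type cells, and Lef1 was also called in both. Bach2, a repressor of effector genes that binds the Prdm1 gene, read 10.3 and 10.0 in Tet2-/- Th17 cells, 9.99 and 10.3 in wild-type Th17 cells, 9.73 and 9.74 in Tet2-/- Th1 cells and 9.23 and 9.28 in wild-type Th1 cells. It was higher in Th17 cells by 0.89 (SE 0.144, adjusted p = 0.00228) in wild-type cells, and the difference in Tet2-/- cells was 0.45 (SE 0.144, adjusted p = 0.0661). The wild-type Th1 arrays were the lowest 2 of the 8 for Bach2, as they were the highest 2 for Prdm1. How many of all genes show this order was not worked out, so no link is read from it.

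Of 16 measured corepressors and partners of Bcl6, 2 (12.5%) were higher and 0 lower in Th17 cells of each genotype, near the 10.4% of all genes called in Tet2-/- and the 8.47% in wild-type cells. Tbl1xr1, a subunit of the NCoR complex, was higher by 0.60 (adjusted p = 0.00826) in Tet2-/- and by 0.61 (adjusted p = 0.00931) in wild-type cells, with Mta3 higher in Tet2-/- cells (0.42, adjusted p = 0.0409, called in 8 of 20 alternatives) and Gps2 in wild-type cells (0.59, adjusted p = 0.0276, called in 13 of 20 alternatives). Of 9 measured partners of Blimp-1, 0 were called in Tet2-/- cells, where 1 had an unadjusted p under 0.05, as did 24.5% of all genes. In wild-type cells 1 of the 9 was called, Tle1 (0.75, adjusted p = 0.000922), a Groucho-type corepressor whose level lay under the receptor mark on all 8 arrays.

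**Figure D3:**
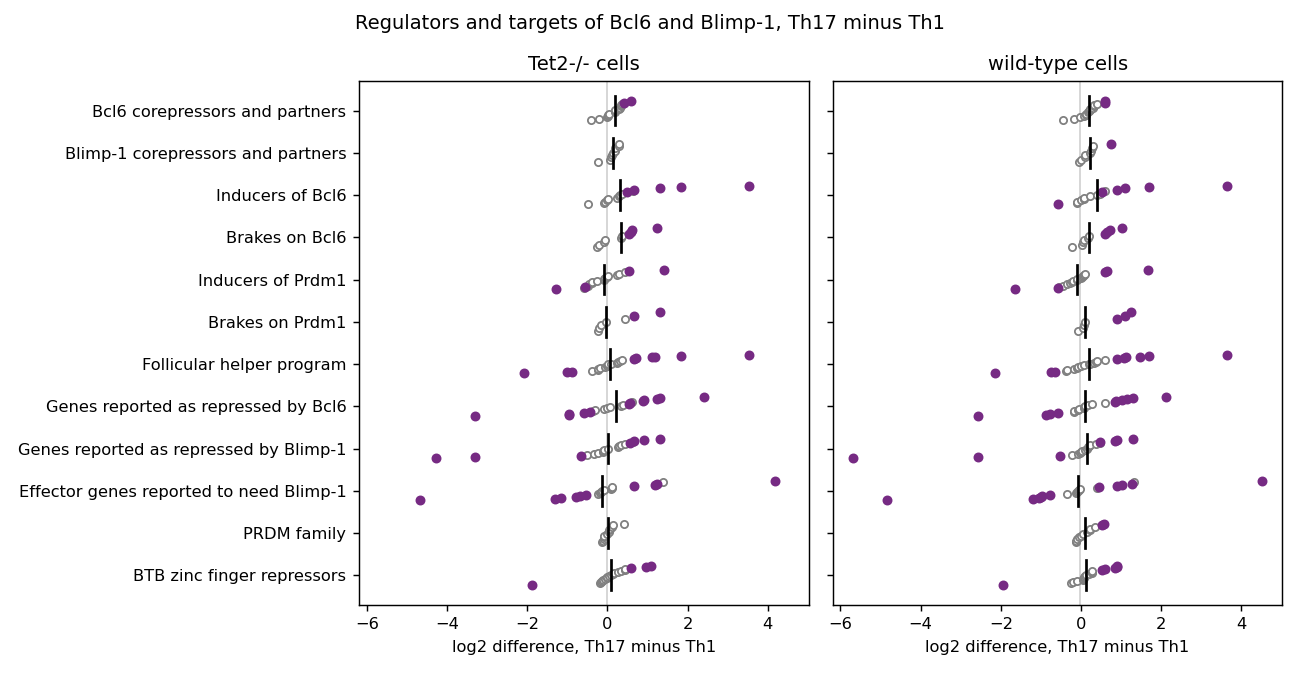
Log2 difference between Th17 and Th1 cells for each measured gene of 12 lists, in Tet2-/- cells (left) and wild-type cells (right); filled points passed the test over all genes, black bars are list medians and the grey line is the median of all genes. Inducers of Bcl6 have medians of 0.31 and 0.39, and the lists of reported targets spread to both sides.

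Genes that Bcl6 is reported to repress were split in direction between the cell types. Of 20 measured genes other than Prdm1, 7 were called higher and 5 lower in Th17 than in Th1 cells without Tet2. In wild-type cells 6 were called higher and 4 lower. The shares over all genes were 10.4% in Tet2-/- and 8.47% in wild-type cells. Tbx21, which encodes the Th1 lineage factor T-bet, was lower by -3.30 (SE 0.159, adjusted p = 1.06e-07) in Tet2-/- and -2.56 (adjusted p = 1.13e-06) in wild-type cells. Rora, a Th17 factor that Bcl6 is reported to repress, was higher by 2.42 and 2.13 (adjusted p = 3.99e-07 and 1.21e-06), beside the higher Bcl6 in the same cells. The chemokine receptor Ccr6 was higher by 0.91 (adjusted p = 0.00221) in Tet2-/- and by 1.29 (adjusted p = 0.000214) in wild-type cells, and the activation marker Cd69 by 0.89 and 1.16 (adjusted p = 0.00461 and 0.000925). The egress receptor S1pr1 was higher by 1.31 and 0.86 (adjusted p = 4.68e-05 and 0.00138), and Cd274, the ligand PD-L1, lower by log2 differences of -0.96 and -0.78 (adjusted p = 0.000557 and 0.00303).

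Genes that Blimp-1 is reported to repress were likewise split, 4 of 19 higher and 3 lower in Th17 cells of each genotype. The called share was 36.8% in each, beside 10.4% of all genes in Tet2-/- and 8.47% in wild-type cells. Ifng, which encodes interferon-γ, was lower in Th17 cells by a log2 difference of -4.28 (adjusted p = 3.93e-09) in Tet2-/- and -5.68 (adjusted p = 2.35e-10) in wild-type cells. S1pr1 is on this list too. Of the effector genes reported to need Blimp-1, 4 of 19 were higher and 6 lower in Tet2-/- cells, and 5 were higher and 6 lower in wild-type cells. These shares were 52.6% and 57.9%, beside the same 10.4% and 8.47% of all genes. The protease Gzmb was lower in Th17 cells by -4.66 (adjusted p = 4.02e-08) and -4.84 (adjusted p = 3.04e-08) log2 units, the inhibitory receptor Lag3 by -1.31 (adjusted p = 0.000241) and -1.20 (adjusted p = 0.000511), and Tigit by -1.16 (adjusted p = 0.000402) and -1.01 (adjusted p = 0.00137). Il23r, the receptor of IL-23, was higher by 4.17 and 4.52 (adjusted p = 1.15e-08 and 6.53e-09). Il10, a known target of Blimp-1, was called higher in wild-type Th17 cells (0.44, adjusted p = 0.0253), but it read at most 4.54 on the 8 arrays, far under the receptor mark on each.

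Of the follicular helper program, 6 of 22 measured genes were higher and 3 lower in Th17 cells of each genotype. The called share was 40.9% in each, beside 10.4% of all genes in Tet2-/- and 8.47% in wild-type cells. Maf, Il21 and Icos were among the higher genes, with Slamf6, a receptor of the SLAM family, at 1.102 (adjusted p = 0.000149) in Tet2-/- and 1.12 (adjusted p = 0.000145) in wild-type cells. Gpm6b, a membrane glycoprotein, was lower by -2.09 and -2.15 (adjusted p = 1.52e-06 and 1.18e-06). Cxcr5, the chemokine receptor that defines follicular helper cells, read 4.80 to 5.36 on the 8 arrays, under the receptor mark on each, in the Th17 cells with the highest Bcl6 as well.

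Relatives of the members were read by family. Of 12 other measured PRDM genes, 0 were called in Tet2-/- cells, where 1 had an unadjusted p under 0.05, as did 24.5% of all genes. In wild-type Th17 cells 2 were higher (16.7%, beside 8.47% of all genes), Prdm2 (0.58, adjusted p = 0.0134) and Prdm10 (0.53, adjusted p = 0.0426). Without the 2 Th17 arrays of extreme Y-linked level 0 of the 12 were called in wild-type cells. Of 19 other BTB zinc finger repressors, 3 were higher and 1 lower in Tet2-/- Th17 cells (21.1%, beside 10.4% of all genes) and 5 were higher and 1 lower in wild-type Th17 cells (31.6%, beside 8.47%). The lower gene was Zbtb32 in both, by -1.88 (adjusted p = 6.12e-06) and -1.96 (adjusted p = 3.81e-06). Zbtb1 was higher by 1.09 and 0.90 (adjusted p = 0.000846 and 0.00414), Zbtb25 by 0.59 and 0.54 (adjusted p = 0.00489 and 0.0106) and Hic1 by 0.98 and 0.85 (adjusted p = 0.00379 and 0.0111).

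Without the 2 Th17 arrays of extreme Y-linked level each Th17 group held 1 array. The background is the share of all genes called in that setting, given above for each genotype. No count is read as differing from it. The counts of called list genes were as follows. Inducers of Bcl6 had 6 of 15 higher and 0 lower in each genotype, and partners of Bcl6 1 of 16 higher and 0 lower in each. Inducers of Prdm1 had 1 of 18 higher and 1 lower in Tet2-/- and 2 higher and 1 lower in wild-type cells, and brakes on Prdm1 1 of 7 and 3 of 7 higher. Genes reported as repressed by Bcl6 had 5 of 20 higher and 4 lower in Tet2-/- and 4 higher and 2 lower in wild-type cells, and those reported as repressed by Blimp-1 3 of 19 higher and 2 lower and 4 higher and 2 lower. Effector genes had 4 of 19 higher and 4 lower in Tet2-/- and 4 higher and 6 lower in wild-type cells, and follicular helper genes 7 of 22 higher and 3 lower and 6 higher and 2 lower. BTB zinc finger genes had 2 of 19 higher and 1 lower in each genotype, and partners of Blimp-1 0 of 9 called in Tet2-/- and 1 in wild-type cells.

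Between genotypes the same lists gave 1 call. In Th1 cells the fit called 0.00502% of all genes, a single gene, which was Ifng in the list of genes that Blimp-1 is reported to repress. It read 10.4 and 10.2 in Tet2-/- Th1 cells, against 11.6 and 11.9 in wild-type Th1 cells (-1.42, SE 0.139, adjusted p = 0.00391), and the call held in 15 of 20 alternatives (adjusted p up to 0.353). It was lost without wild-type Th1 replicate 2 and without Tet2-/- Th1 replicate 2, among others. At an unadjusted p under 0.05 stood 5.74% of all genes in this comparison. Prdm1 was lower in the same Tet2-/- Th1 cells. In Th17 cells limma called 0% of all genes, with 4.25% (848 of 19938) at an unadjusted p under 0.05, and 0 of 149 list genes.

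Since almost nothing was called by genotype, the lists are described by how many of their genes had arrays that did not overlap. In Th1 cells 18.3% of all genes were higher and 14.4% lower in both Tet2-/- arrays than in both wild-type arrays, and in Th17 cells 19.9% were higher and 13.3% lower. Among brakes on Prdm1, 4 of 7 were higher and 0 lower in Tet2-/- Th1 cells, with a median log2 difference of 0.20 against 0.01 over all genes. They included Bach2 (0.48, SE 0.144, adjusted p = 0.824) and Myb, which read 8.83 and 9.21 in Tet2-/- and 8.55 and 8.50 in wild-type Th1 cells (0.49, SE 0.141, adjusted p = 0.824). In Th17 cells 1 of the 7 was higher and 1 lower, with a median of -0.06. Inducers of Prdm1 had 6 of 18 higher and 0 lower in Tet2-/- Th1 cells (median 0.06), the smallest p being that of Ikzf3 (0.41, adjusted p = 0.824). Irf4 differed by 0.07 (SE 0.126), Il2ra by 0.00 (SE 0.123), Stat5a by 0.05 (SE 0.132) and Stat5b by 0.09 (SE 0.122) there.

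In Th17 cells, where Bcl6 read higher in the Tet2-/- arrays, its inducers had 5 of 15 higher and 2 lower, with a median of 0.12 against 0.02 over all genes. Id3 differed by 0.56 (SE 0.210), Batf by 0.28 (SE 0.129) and Stat3 by 0.24 (SE 0.146), whereas Il21 read 11.0 and 10.7 in Tet2-/- and 11.3 and 11.3 in wild-type Th17 cells (-0.42, SE 0.172) and Maf differed by -0.05 (SE 0.236), with adjusted p = 0.999 for each. Of the follicular helper program, 1 of 22 was higher and 9 lower in Tet2-/- Th17 cells (median -0.13). These included Tnfsf8, the ligand of CD30, at -0.38 (SE 0.124, adjusted p = 0.956) and Cd40lg at -0.34 (SE 0.126, adjusted p = 0.999). By sign alone 16 of the 22 follicular helper genes were lower in Tet2-/- Th17 cells, and 0 of the 22 passed the test, with 4 at an unadjusted p under 0.05. The share of all genes that were lower by sign was not worked out. Some list genes, such as Cxcr5, lay under the receptor mark, so nothing on Bcl6 is read from this count. Of the genes that Bcl6 is reported to repress, 6 of 20 were higher and 4 lower (median -0.11). Tbx21 read 6.95 and 7.31 in Tet2-/- and 7.46 and 7.89 in wild-type Th17 cells (-0.54, SE 0.159, adjusted p = 0.764), and Rora differed by 0.32 (SE 0.135, adjusted p = 0.999).

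Of the remaining lists, the partners of Bcl6 had 4 of 16 higher and 0 lower in Tet2-/- cells of each type, and the brakes on Bcl6 2 of 10 higher and 2 lower in Th17 and 3 higher and 0 lower in Th1 cells. Partners of Blimp-1 had 1 of 9 higher and 2 lower in Th17 cells and 4 higher and 0 lower in Th1 cells. Genes reported as repressed by Blimp-1 had 5 of 19 higher and 4 lower in Th17 cells, and 6 higher and 4 lower in Th1 cells. In the Th1 cells, where Prdm1 was lower, the median of that list was 0.04, and effector genes reported to need Blimp-1 had 1 of 19 higher and 4 lower with a median of -0.02, such as Gzmb at -0.38 (SE 0.200, adjusted p = 0.853). In Th17 cells those effector genes had 4 of 19 higher and 3 lower, and inducers of Prdm1 3 of 18 higher and 1 lower. PRDM genes had 1 of 12 higher and 1 lower in Th17 and 4 higher and 0 lower in Th1 cells, and BTB zinc finger genes 3 of 19 higher and 5 lower and 4 higher and 2 lower. In Th1 cells the inducers of Bcl6 had 6 of 15 higher and 1 lower, follicular helper genes 5 of 22 higher and 5 lower, and genes reported as repressed by Bcl6 4 of 20 higher and 5 lower. Shares near 18.3% and 14.4%, or 19.9% and 13.3%, are those of the background. Whether the effect of genotype differed between Th17 and Th1 cells was tested for every gene, and 0% of all genes and 0 of the list genes passed, with 4.55% (908 of 19938 genes) at an unadjusted p under 0.05.

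**Figure D4:**
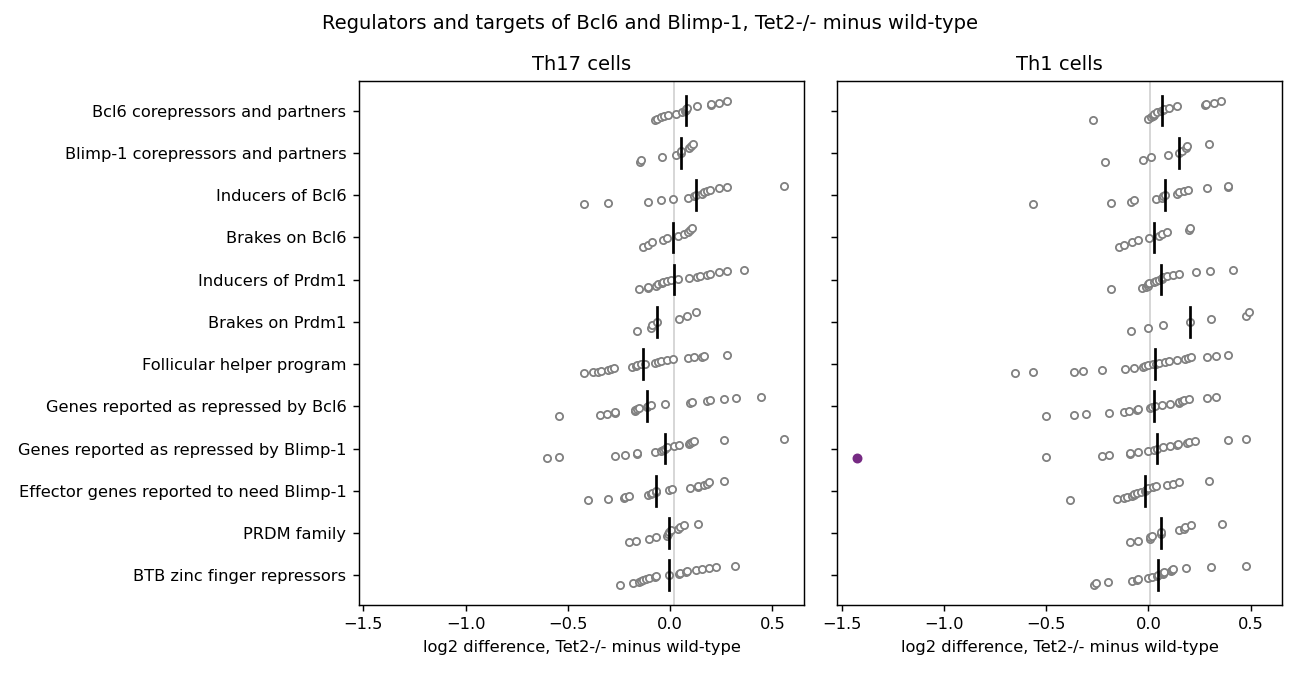
Log2 difference between Tet2-/- and wild-type cells for each measured gene of 12 lists, in Th17 cells (left) and Th1 cells (right), with symbols as for the comparison of cell types. The single filled point is Ifng at -1.42 in Th1 cells, and the medians lie between -0.13 and 0.20.

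Profiles like those of the members were sought over the 8 arrays among the genes that were at or above the median level and ranged over at least 1 log2 unit, by Pearson's r. Since the arrays fall into 2 cell types, a high r mostly reflects the difference between Th17 and Th1 cells, and it is given as a description. Genes named here were picked by r over these same arrays, so a likeness of their group levels to those of a member was largely set by the choice. Of 725 genes, those most like Bcl6 were Klhl6 (r = 0.994), Lpin1 (0.992), Dgat1 (0.992), Tcp11l2 (0.991) and Zyg11b (0.990). Dgat1, an enzyme of triglyceride synthesis, read 10.1 and 10.2 in Tet2-/- Th17 cells, 9.31 and 9.50 in wild-type Th17 cells, 8.36 and 8.63 in Tet2-/- Th1 cells and 8.47 and 8.65 in wild-type Th1 cells, so that the Th17 groups stood apart from each other and the Th1 groups overlapped, as for Bcl6. Klhl6, a BTB and kelch protein, read 10.3 in both Tet2-/- Th17 arrays and 9.76 and 10.1 in wild-type Th17 cells, against 9.05 to 9.13 in the 4 Th1 arrays. The most opposite profiles were those of Cd200 (-0.985), Notch2 (-0.977), Plek (-0.977), Fam71b (-0.974) and the chemokine Ccl3 (-0.971). Cd200 is itself a gene of the follicular helper list, and it was lower in Th17 cells by -0.998 (adjusted p = 0.000629) in Tet2-/- and -0.75 (adjusted p = 0.00557) in wild-type cells.

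The genes most like Prdm1, of 726, were Ifi27 (r = 0.973), Ifitm3 (0.968), Usp18 (0.960), Ifng (0.956) and Pdcd1lg2 (0.955). Ifi27, Ifitm3 and Usp18 are known as interferon-induced genes, and Pdcd1lg2 encodes the ligand PD-L2. Usp18 read 7.27 and 7.21 in Tet2-/- Th17 cells, 6.66 and 6.75 in wild-type Th17 cells, 8.39 and 8.38 in Tet2-/- Th1 cells and 8.80 and 8.95 in wild-type Th1 cells. Its order of groups was that of Prdm1, highest in wild-type Th1 and lowest in wild-type Th17 cells, with no overlap between groups. Usp18 was picked by its r with Prdm1, and Prdm1 lay under the receptor mark in Tet2-/- Th1 and all Th17 cells. Nothing further is read from the shared order. The most opposite profiles were those of Kbtbd11 (-0.981), Myb (-0.976), Tpra1 (-0.969), Bach2 (-0.964) and Tnik (-0.963). Myb and Bach2 were also on the list of brakes on Prdm1. That list was written with earlier results of these data known, so no link is read from this.

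**Figure D5:**
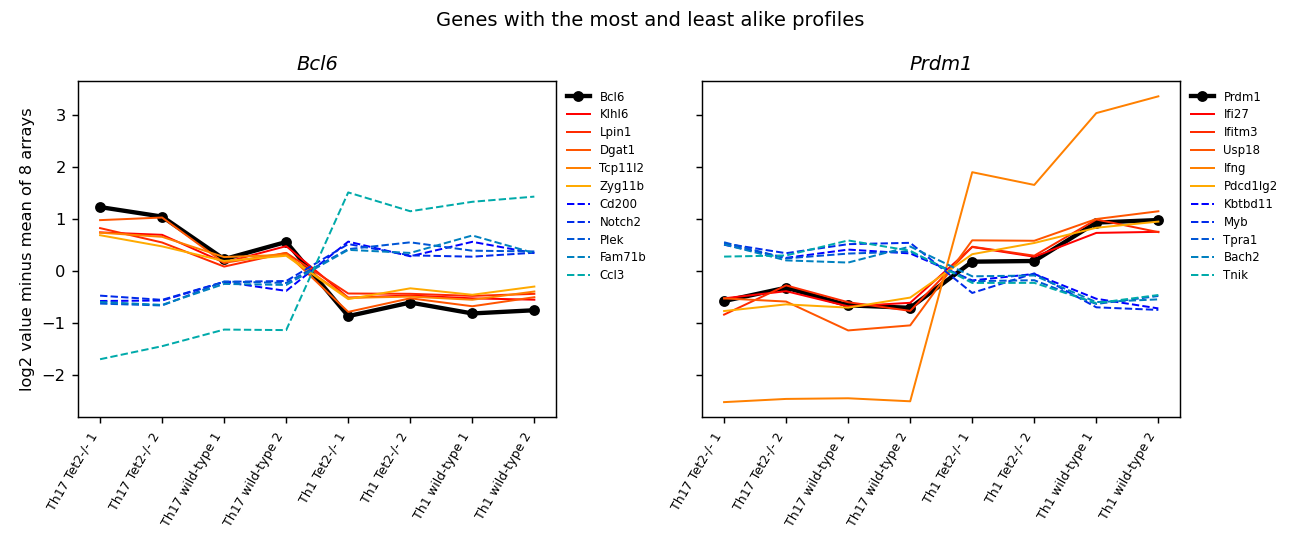
Log2 value minus its mean over the 8 arrays for Bcl6 (left) and Prdm1 (right, black), with the 5 genes of highest r (solid) and the 5 of lowest r (dashed); arrays are given by group and replicate number. The profiles of Bcl6 and its likes step up in Tet2-/- Th17 cells, and those of Prdm1 and its likes step down in Tet2-/- Th1 cells relative to wild-type Th1 cells.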

How the data were processed

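Total RNA from 8 cultures was labelled with biotin and hybridised to Affymetrix arrays, 1 array per sample. The authors deposited a log2 value for each probeset on each array; per the submitters' processing notes, RMA and Partek were used. Their versions, the log base and the filters are not given in the sources used here; base 2 was inferred because the values span the range usual for RMA. Detection calls were not used here, and the number of arrays limits the precision. Of 35556 probesets, 21789 had 1 gene symbol, 1621 several and 12146 none. A RefSeq table (GRCm38.p6) held the Entrez IDs of 21698 and changed 0 symbols. The brightest probeset was kept for the 999 genes with more than 1, leaving 19938 genes.

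Group means were fitted to the 8 arrays together (limma 3.58.1, R 4.3.3, eBayes with an intensity trend, 4 residual and 8.44 prior degrees of freedom). Tests were two-sided, with Benjamini-Hochberg adjustment over all genes and a threshold of 0.05, and the fit was tested on simulated data. SE comes from this fit and SD from the 2 arrays of a group. With no statement that replicates came from separate mice, p-values measure only the spread between these samples. Members and lists were chosen with earlier results of these data known. Genes were named by rule: a fixed panel, up to 4 members of each list with the smallest p per contrast, and the 5 highest and 5 lowest r, with predicted and small RNA genes passed over. Promoter windows came from RefSeq, and both members matched. No replicate block was used, since the numbers in the titles are not stated to mark a shared mouse, batch or day. Deviations of same-numbered arrays had correlations of -0.19 to 0.05, a check that cannot show batches numbered in another way. The 20 alternatives left out each array, used a replicate block, changed the probeset rule, the genes tested, the normalization, the moderation, the weights or the arrays fitted, or allowed for the Y-linked level.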

Additional observations from a re-analysis of the deposited data

Results flagged for a closer look

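For 13 of 115 named genes (11.3%) both Tet2-/- arrays lay on one side of both wild-type arrays in Th17 cells and on the other side in Th1 cells, as for 4.82% of all genes. The named genes were in part picked for small p-values in these comparisons, so nothing is read from the higher share. For Prdm1 the genotype difference in Th17 cells minus that in Th1 cells was 1.01 log2 units; the difference was not tested, since Prdm1 was chosen by these levels, and its Th17 and Tet2-/- Th1 values lay under the receptor mark. The same quantity was positive for Usp18 (1.03), Ifi27 (0.57), S1pr1 (0.45), Zbtb38 (0.42) and Entpd1 (0.24). It was negative for Tbx21 (-0.74), Plek (-0.53), Tnik (-0.51), Izumo1r (-0.50), Tle1 (-0.44), Tle2 (-0.33) and Prdm15 (-0.32). None of these 12 other genes passed the limma interaction test across all genes, the smallest adjusted p being 0.194 for Usp18.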

How the results depend on the processing

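Counts of calls moved with the processing and the arrays. With all probesets tested, 0 genes were called between genotypes in Th1 cells, 1064 between Th17 and Th1 cells without Tet2 and 622 in wild-type cells. In Th1 cells 0 were also called with only the groups compared in the fit. Leaving out dim genes, or using array weights, gave 2 calls between genotypes in Th17 cells. Without the 2 Th17 arrays of extreme Y-linked level the calls were 0 between genotypes in Th1 cells, 975 between Tet2-/- Th17 and Th1 cells and 808 in wild-type cells. In the same setting Prdm1 differed by 0.13 between genotypes in Th17 cells, by 0.90 in the Th17 minus Th1 genotype difference and by -0.77 between Tet2-/- Th17 and Th1 cells, and Bcl6 by 1.35 between wild-type Th17 and Th1 cells. The causes were not tested.

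Leaving out each array in turn gave 0 to 9 calls between genotypes in Th17 cells, 0 to 2 in Th1 cells and 0 to 4 for their difference, 815 to 2383 between Tet2-/- Th17 and Th1 cells and 667 to 1560 in wild-type cells; the extremes came without Th17 Tet2-/- replicate 1 (9, 4 and 815), Th17 wild-type replicate 2 (667), Th1 Tet2-/- replicate 1 (2 and 1560) and Th1 wild-type replicate 2 (2383). Bcl6 ran from 0.58 to 0.91 between genotypes in Th17 cells, 0.53 to 0.86 for the Th17 minus Th1 genotype difference and 1.01 to 1.35 between wild-type Th17 and Th1 cells. Prdm1 ran from 0.11 to 0.36, 0.88 to 1.14 and, between Tet2-/- Th17 and Th1 cells, -0.77 to -0.51. A lone array left in a group was assumed to vary like the others.

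With a replicate block the calls were 0 between genotypes in Th17 cells, 1 in Th1 cells, 1810 between Tet2-/- Th17 and Th1 cells and 1411 in wild-type cells, and every Bcl6 and Prdm1 difference was the same by construction. A block with the numbers crossed in wild-type Th1, chosen after seeing the data, gave 1788 calls in wild-type cells. Of the named genes, 34 of 54 called between Tet2-/- Th17 and Th1 cells and 36 of 60 called in wild-type cells were called in every alternative.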
